A study of Mus musculus with 22 samples.

Results

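Collagen chain genes were taken as every gene of the deposited FPKM table whose symbol has the form Col, a number, the letter a and a number. The rule found 44 of 20938 genes: 11 fibrillar chains, 6 basement membrane (type IV) chains and 27 others. Levels are fragments per kilobase of transcript scaled to library size (FPKM), and so can be compared between genes.

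The 22 libraries of lung RNA came from BALB/c mice, and the labels call them biological replicates. All groups, the PBS controls included, received a sensitizing intraperitoneal injection when 49 days old and a booster at 63 days. Aerosols were given from 70 days: ovalbumin (OVA, the egg-white allergen of mouse asthma models; 4 libraries per protocol), methacholine (MCh, a muscarinic agonist that constricts airways; 4 per protocol) or phosphate-buffered saline (PBS; 3 per protocol). In the long protocol mice were challenged 3 times a week for 4 weeks, and in the short protocol on 3 consecutive days. The sensitizing agent is not named, sample titles give 4 days for short MCh and call the PBS and MCh mice normal, and the series design names trachea where sample labels name lung. Alveolar type 1 cell markers summed to 2306 to 3924 FPKM in every library and cartilage markers to 9.40 to 25.9, so the tissue is called lung here.

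Collagens are trimers of alpha chains. The fibrillar types I, III and V make up the tensile fibres of airway and vessel walls, and type III is prominent in compliant tissue and early scar. Type IV forms the network of basement membranes: alpha 1 and alpha 2 chains in nearly all of them, and alpha 3, alpha 4 and alpha 5 chains in the membrane that alveoli and the kidney filter share. Type VI forms beaded filaments around cells, and fibril-associated collagens such as type XII decorate fibres. Subepithelial collagen deposition is a known feature of asthmatic airways.

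Of the 44 genes, 36 had at least 0.1 FPKM in at least 3 libraries and were tested. Among those left out, Col2a1, Col19a1, Col22a1 and Col25a1, with Col9a1, Col9a2, Col10a1 and Col11a1, had a mean of at most 0.0994 FPKM over the 22 libraries. Differences are log2 fold changes of FPKM + 0.5 from limma, given ± SE, and "rose" or "fell" is used for a Benjamini-Hochberg adjusted p under 0.05 over all 15682 tested genes. Levels are means ± SD with n = 4 (OVA, MCh) or n = 3 (PBS).

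Several libraries stood apart. Long MCh libraries a and c had 34.3% and 33.8% of their genes at 0, short MCh library 1 had 28.3%, and the other 19 had 22.5% to 25.3%. Collagen transcripts are long (2624 to 11511 bases, median 5628, against 2796 for tested genes), and 29 of the 36 tested members lie in the fifth of tested genes with the longest transcripts. The Spearman correlation across genes of a library's deviation from the gene means with transcript length was 0.257 to 0.359 in long OVA, 0.051 to 0.455 in long MCh, 0.361 to 0.408 in long PBS, −0.475 to −0.396 in short OVA, −0.643 to 0.243 in short MCh and −0.031 to 0.274 in short PBS. The value of −0.643 belonged to short MCh library 4. Results are therefore also given with each library's length trend removed.

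In short OVA lungs collagen genes passed the test in both directions. The fibrillar genes Col3a1, Col1a1 and Col5a2 and the type VI genes Col6a5 and Col6a2 rose, while 5 of 6 type IV genes, Col12a1, Col13a1 and Col23a1 fell. Of the 36 tested members 5 rose, against 12.4% of all tested genes, and 8 fell, against 11.7%. In the fifth of genes with the longest transcripts 3.65% rose and 26.1% fell. The median change of the members was −0.23, against −0.06 over all tested genes and −0.39 over those with the longest transcripts. With the length trend removed the median of the members was 0.08.

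The fibrillar genes summed to 172 ± 37.2 FPKM in short OVA and 72.1 ± 4.58 FPKM in short PBS lungs. That was 45.0 ± 5.03% of all collagen FPKM in short OVA and 18.7 ± 1.41% in short PBS. The type IV genes summed to 111 ± 3.89 FPKM in short OVA and 223 ± 34.4 FPKM in short PBS, or 29.7 ± 3.58% and 57.5 ± 3.29% of the total. The total over all members was 378 ± 39.9 FPKM in short OVA and 387 ± 38.3 FPKM in short PBS. The totals of the groups overlapped (339 to 424 FPKM in short OVA and 353 to 428 FPKM in short PBS), while the fibrillar and type IV shares had ranges that did not. These sums and shares are descriptions with no test, on FPKM as deposited, without removal of the length trend. Type IV transcripts have 6410 to 10108 bases and fibrillar transcripts 4983 to 8406. Among the fibrillar genes Col1a2 has 5348, Col3a1 5564, Col1a1 5930 and Col5a2 6625 bases.

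**Figure D1:**
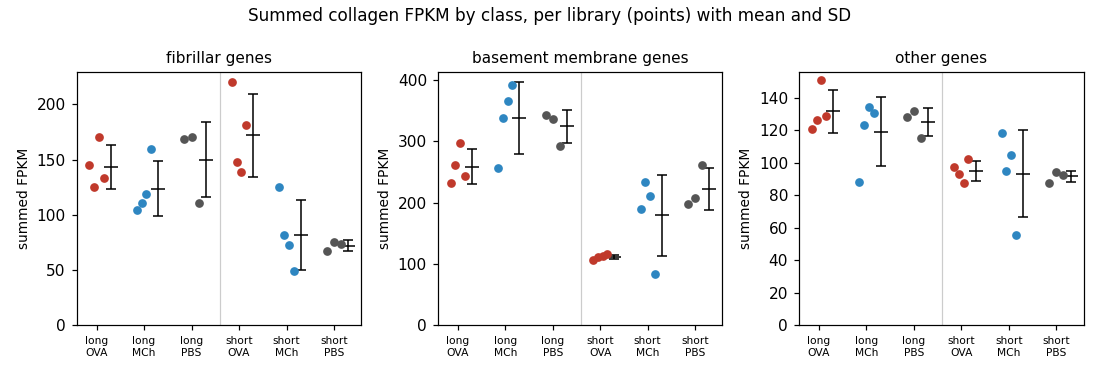
Summed FPKM (vertical axis) of the fibrillar, basement membrane and other collagen genes in each library (points) by group, with the mean and SD beside them; all 3 axes start at 0. In the short protocol the 4 OVA libraries lie between 138 and 221 FPKM for fibrillar genes and between 106 and 116 FPKM for type IV genes, against 67.0 to 75.7 and 198 to 262 FPKM in PBS.

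Col3a1 (chromosome 1, 45311538 to 45349706, GRCm38.p6) encodes the chain of type III collagen. It had 120.7, 78.2, 70.0 and 93.3 FPKM in short OVA libraries 1 to 4, 44.3, 24.6, 19.5 and 20.01 FPKM in short MCh, and 21.0, 21.7 and 20.1 FPKM in short PBS. Every OVA library lay above every MCh and PBS library, and the PBS libraries differed little. Col3a1 rose by 2.06 ± 0.29 against PBS (adjusted p = 4.2e-05), the second smallest p among the members.

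Col1a2 and Col1a1 encode the chains of type I collagen. Col1a2 (chromosome 6, 4505618 to 4541543) had 41.7, 26.4, 26.7 and 34.1 FPKM in short OVA, 30.4, 22.2, 20.9 and 12.7 FPKM in short MCh, and 20.5, 20.1 and 22.4 FPKM in short PBS. Every OVA library lay above the PBS libraries, but the difference of 0.58 ± 0.22 did not pass the test (adjusted p = 0.058). It passed with the length trend removed (0.90 ± 0.17, adjusted p = 5.8e-04). Col1a1 (chromosome 11, 94936224 to 94953042) had 20.8, 13.01, 11.4 and 20.02 FPKM in short OVA, 14.5, 9.37, 7.64 and 3.51 FPKM in short MCh, and 5.36, 7.50 and 7.27 FPKM in short PBS. It rose by 1.19 ± 0.34 against PBS (adjusted p = 0.016), a call lost without short OVA library 1 (1.06, adjusted p = 0.056) or short PBS library 1 (1.05, adjusted p = 0.071). The OVA libraries again lay above all PBS libraries and overlapped those of MCh.

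The level of Col3a1 was 2.80 ± 0.154 times that of Col1a2 in short OVA, 1.27 ± 0.298 times in short MCh and 0.999 ± 0.0947 times in short PBS. The chains of types III and I thus stood in a different proportion, with OVA ratios of 2.62 to 2.96 and PBS ratios of 0.894 to 1.08. The ratio of Col1a1 to Col1a2 was 0.502 ± 0.0657 in short OVA and 0.320 ± 0.0561 in short PBS. The short OVA ratios of Col3a1 to Col1a2 lay above those of short PBS and short MCh (0.933 to 1.57), which overlapped each other. In the long protocol this ratio overlapped too, at 1.55 to 2.14 with OVA and 1.20 to 2.17 with PBS. Because of the short OVA ratio, Col3a1 and Col1a2 are shown with the sequence upstream of their RefSeq start. These are 250 bases of GRCm38.p6, read 5′ to 3′ on the gene's strand. Col3a1 lies on the plus strand of chr1:45311288-45311537 and Col1a2 on the plus strand of chr6:4505368-4505617. Capitals mark the motifs searched on both strands. These were the CCAAT box (spelled as its name), the TATA box in the form TATAAA, the GC box in the form GGGCGG, and a palindrome of TTC with a spacer of 4 bases before GAA.
Col3a1: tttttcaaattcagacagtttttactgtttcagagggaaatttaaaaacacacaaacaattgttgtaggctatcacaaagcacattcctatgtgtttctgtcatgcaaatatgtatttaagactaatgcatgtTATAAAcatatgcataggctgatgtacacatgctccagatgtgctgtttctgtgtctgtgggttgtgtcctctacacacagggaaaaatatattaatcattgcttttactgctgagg
Col1a2: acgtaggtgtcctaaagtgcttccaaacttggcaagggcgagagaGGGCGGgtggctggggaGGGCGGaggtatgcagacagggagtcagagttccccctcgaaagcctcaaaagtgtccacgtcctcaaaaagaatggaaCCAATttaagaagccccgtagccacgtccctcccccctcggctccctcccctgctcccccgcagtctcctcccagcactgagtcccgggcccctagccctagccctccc
In the window of Col3a1 a TATAAA stands 117 to 112 bases upstream of the start. That of Col1a2 holds a CCAAT 109 to 105 bases upstream and GGGCGG at 205 to 200 and at 188 to 183 bases. Windows were found for 35 members, 38 in all because Col6a2, Col9a1 and Col18a1 have more than 1. CCAAT occurred in 13 of the 38 and in 33.8% of the 32851 windows of all genes, TATAAA in 5 and 12.4%, GGGCGG in 22 and 32.7%, and the spaced palindrome in 0 and 5.85%. A match describes these letters and is not evidence of binding.

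Col5a2 (chromosome 1, 45374331 to 45503282), a chain of type V collagen that joins type I and III fibrils, had 30.5, 24.01, 23.95 and 26.2 FPKM in short OVA, 20.01, 15.8, 14.4 and 9.74 FPKM in short MCh, and 12.6, 15.3 and 14.8 FPKM in short PBS. All 4 OVA libraries lay above those of both other aerosols. It rose by 0.85 ± 0.20 against PBS (adjusted p = 0.005). The other fibrillar genes did not pass in the main fit. Col27a1 was lower without the 3 libraries with most genes at 0 (−0.67 ± 0.22, adjusted p = 0.024), but not with the length trend removed (adjusted p = 0.47). Col5a1, the partner chain of Col5a2, had 2.72 ± 0.639 FPKM in short OVA and 3.47 ± 0.546 FPKM in short PBS. Col27a1 had 2.10 ± 0.304 and 3.67 ± 0.919 FPKM in short OVA and short PBS, and Col11a2 had 1.26 ± 0.227 and 1.71 ± 0.284 FPKM. Col5a3 lay between 0.0842 and 0.214 FPKM in short OVA and between 0.210 and 0.423 FPKM in short PBS.

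**Figure D2:**
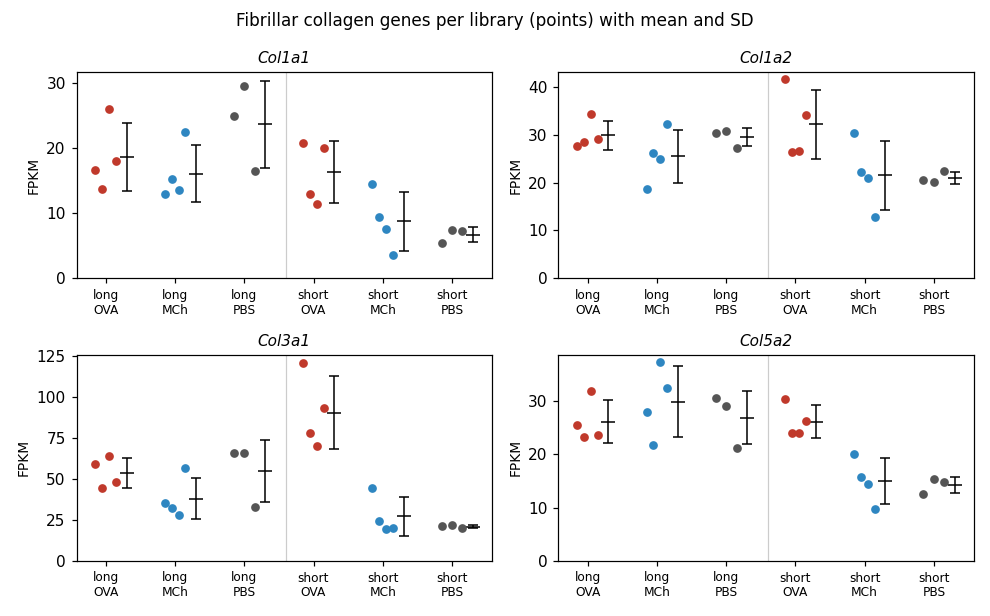
FPKM (vertical axis, from 0) of Col1a1, Col1a2, Col3a1 and Col5a2 in each library (points) by group, with mean and SD. Col3a1 lies at 70.0 to 121 FPKM in short OVA and 20.1 to 21.7 FPKM in short PBS, while in the long protocol OVA (44.2 to 63.8 FPKM) and PBS (32.7 to 66.1 FPKM) overlap.

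Of the 6 type IV genes 5 fell in short OVA lungs. Most of these genes are neighbours in pairs on the genome. Col4a1 and Col4a2 lie head to head on chromosome 8 and overlap by 85 bases at their starts, and Col4a3 and Col4a4 do so on chromosome 1 with 114 bases. Whether fragments were counted by strand is not stated, so those in an overlap may fall to either gene. Col4a1 had 37.3, 37.4, 37.0 and 40.2 FPKM in short OVA, 55.6, 71.8, 62.8 and 26.5 FPKM in short MCh, and 62.6, 60.2 and 83.6 FPKM in short PBS. The OVA libraries were close to each other and below every PBS library, and short MCh library 4 was lower still. Col4a1 fell by 0.83 on the log2 scale (SE 0.24, adjusted p = 0.017), a call lost without short PBS library 3 (−0.69, adjusted p = 0.11).

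Col4a3 (chromosome 1, 82586921 to 82722059) had 15.8, 19.1, 17.2 and 16.02 FPKM in short OVA, 34.5, 39.9, 34.5 and 14.7 FPKM in short MCh, and 29.9, 36.1 and 37.6 FPKM in short PBS. Again short MCh library 4, the library with the most negative length trend, lay with the OVA libraries. Col4a3 fell by 0.997 on the log2 scale (SE 0.22, adjusted p = 0.0028). Col4a2 fell by 1.06 (SE 0.25), Col4a4 by 1.23 (SE 0.33) and Col4a5 by 0.76 (SE 0.16), all on the log2 scale with adjusted p of 0.004, 0.01 and 0.0019. The call of Col4a4 was lost without short PBS library 3 (−1.14, adjusted p = 0.054). Col4a6, near 0.1 FPKM in OVA, did not pass in the main fit (0.116 ± 0.0228 FPKM in short OVA and 0.266 ± 0.0268 FPKM in short PBS). It passed without the 3 libraries with most genes at 0 (−0.315, adjusted p = 0.0057), but not with the length trend removed (adjusted p = 0.78).

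With the length trend removed the same 5 genes fell, by less: the changes were −0.43 for Col4a1, −0.67 for Col4a2, −0.50 for Col4a3, −0.67 for Col4a4 and −0.37 for Col4a5. The Col4a1 to Col4a2 ratio was 0.923 ± 0.0282 in short OVA and 0.789 ± 0.0362 in short PBS, and the Col4a3 to Col4a4 ratio 1.97 ± 0.218 and 1.64 ± 0.114. Markers of cells known to make type IV collagen were read beside it, against 11.7% of all tested genes lower. Alveolar type 1 markers summed to 2306 to 2777 FPKM in short OVA and 3062 to 3673 FPKM in short PBS, with 5 of 8 lower and none at 0 in any library. Endothelial markers summed to 1503 to 1794 FPKM in short OVA and 1747 to 2294 FPKM in short PBS, with 3 of 7 lower, none at 0 and sums that overlapped. Their part in the type IV result was not tested, and in bulk lung RNA fewer cells of a type and less RNA per cell cannot be told apart.

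**Figure D3:**
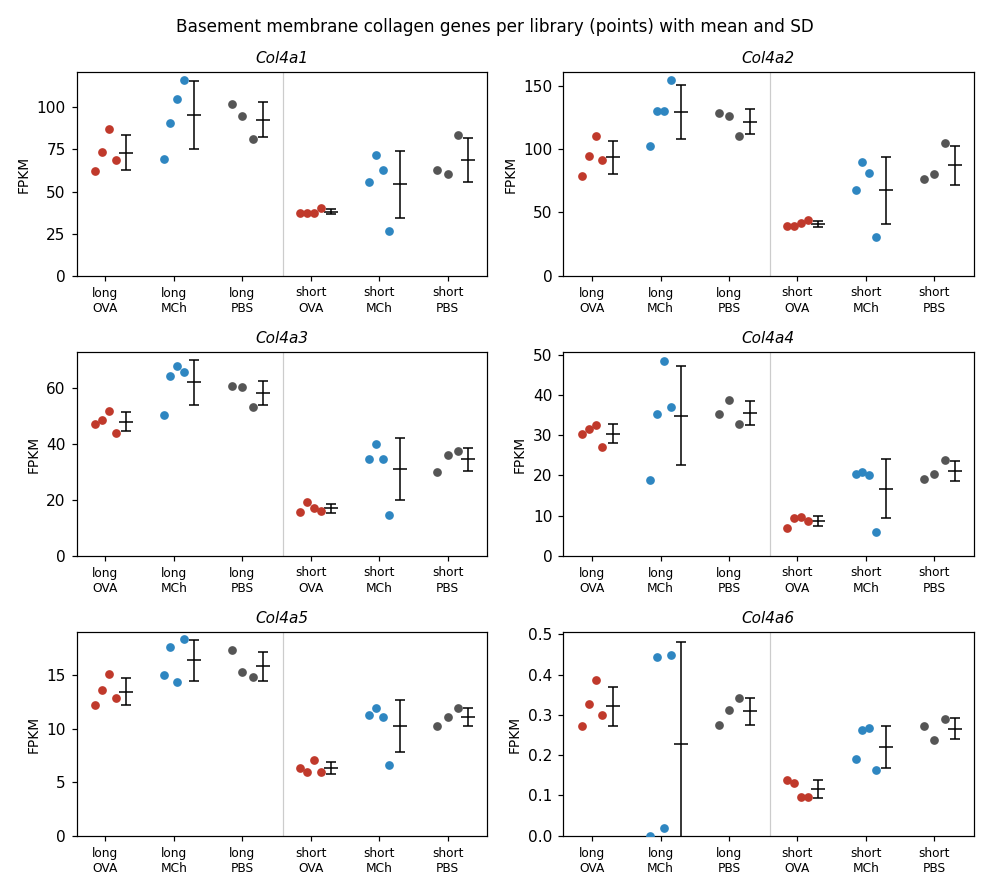
FPKM (vertical axis, from 0) of the 6 type IV chain genes in each library (points) by group, with mean and SD. In the short protocol the OVA libraries lie below all PBS libraries for each gene, and short MCh library 4 lies below the other 3 MCh libraries.

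Among the other collagens the change in short OVA lungs was greatest for Col6a5 (chromosome 9, 105856070 to 105962463), which encodes an alternative chain of type VI collagen. It had 8.96, 5.31, 4.35 and 5.91 FPKM in short OVA, 0.427, 0.335, 0.622 and 0.0825 FPKM in short MCh, and 0.344, 0.385 and 0.472 FPKM in short PBS. The lowest OVA library was far above the highest of the other aerosols. Col6a5 rose by 2.84 ± 0.28 against PBS (adjusted p = 7.9e-07), the smallest p among the members. Its upstream window, shown as that of the most changed member, is on the minus strand of chr9:105960644-105960893, with GGGCGG in capitals 57 to 52 bases upstream. The start listed lies within the gene's span.
Col6a5: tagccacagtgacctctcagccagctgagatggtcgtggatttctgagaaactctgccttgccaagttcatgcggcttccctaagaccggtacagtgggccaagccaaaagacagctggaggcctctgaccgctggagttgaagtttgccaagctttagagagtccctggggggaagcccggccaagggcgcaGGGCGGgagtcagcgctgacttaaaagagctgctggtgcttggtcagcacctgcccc

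The main type VI chains moved less. Col6a2 rose by 0.76 ± 0.20 (adjusted p = 0.0084), with 21.7 ± 2.45 FPKM in short OVA and 12.5 ± 0.857 FPKM in short PBS. Col6a1, its neighbour on chromosome 10, had 22.8 ± 2.13 FPKM in short OVA and 18.2 ± 1.39 FPKM in short PBS and did not pass (0.32 ± 0.18, adjusted p = 0.20). The Col6a1 to Col6a2 ratio was 1.06 ± 0.0740 in short OVA and 1.45 ± 0.0431 in short PBS, so the proportion of these partner chains differed between the groups. Col6a3 had 5.58 ± 0.654 and 5.57 ± 0.759 FPKM in short OVA and short PBS. With the length trend removed Col6a1 (0.52 ± 0.13), Col6a3 (0.55 ± 0.16) and Col6a6 (0.56 ± 0.16) also passed, making 9 higher and 7 lower members, against 21.1% of all genes called in that fit. Col6a6 is near the floor, with 0.1075 ± 0.03721 FPKM in short OVA and 0.03715 ± 0.01463 FPKM in short PBS. Both levels lie under the 0.5 FPKM added before logs were taken.

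Col12a1, which is fibril-associated, and the transmembrane Col13a1 and Col23a1 fell. Col12a1 (chromosome 9, 79598987 to 79721141), whose product binds the surface of type I fibrils, had 0.994, 1.24, 1.96 and 1.72 FPKM in short OVA, 6.90, 6.24, 6.59 and 2.503 FPKM in short MCh, and 4.88, 4.83 and 4.17 FPKM in short PBS. All OVA libraries were below all others, with short MCh library 4 the lowest of the rest. Col12a1 fell by 1.40 on the log2 scale (SE 0.25, adjusted p = 5.4e-04) and by 0.79 with the length trend removed. Col13a1, a transmembrane collagen of cell junctions, fell by 0.67 (SE 0.16, adjusted p = 0.0044), with 7.68 ± 0.555 FPKM in short OVA and 12.6 ± 1.61 FPKM in short PBS.

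Col23a1, another transmembrane collagen, had 5.76, 6.11, 6.36 and 6.32 FPKM in short OVA, 11.01, 12.8, 13.4 and 10.2 FPKM in short MCh, and 11.03, 10.3 and 12.4 FPKM in short PBS. The OVA values were tightly grouped below all others. Col23a1 fell by 0.82 (SE 0.25, adjusted p = 0.022), but the call was lost with the length trend removed (−0.48, adjusted p = 0.16). It was also lost without short OVA library 1 (adjusted p = 0.057), short PBS library 1 (0.055) or short PBS library 3 (0.097).

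The remaining members at 1 FPKM or more did not pass in the main fit of short OVA against short PBS. Without the 3 libraries with most genes at 0, Col15a1 (0.53 ± 0.18, adjusted p = 0.029), Col16a1 (−0.62 ± 0.17, 0.0071) and Col20a1 (−0.54 ± 0.21, 0.049) passed. With the length trend removed they did not (adjusted p = 0.11, 0.42 and 0.58). Fibril-associated Col14a1 had 7.23 ± 0.499 and 5.92 ± 1.54 FPKM, Col16a1 had 2.58 ± 0.0970 and 4.26 ± 0.329 FPKM, and Col20a1 had 1.16 ± 0.196 and 1.93 ± 0.393 FPKM. Col8a1 and Col8a2, chains of the hexagonal type VIII network, had 2.12 ± 0.211 and 2.05 ± 0.283 FPKM, and 3.26 ± 0.452 and 4.53 ± 0.753 FPKM. Col15a1 and Col18a1, which hold basement membranes to the tissue beneath, had 1.23 ± 0.122 and 0.722 ± 0.291 FPKM, and 3.88 ± 0.407 and 3.99 ± 0.403 FPKM. Col7a1, the anchoring fibril chain, had 1.18 ± 0.407 and 2.07 ± 0.300 FPKM. The other tested members under 1 FPKM that belong to neither the fibrillar nor the type IV class, namely Col6a4, Col6a6, Col9a3, Col17a1, Col26a1 and Col28a1, had means of 0.0513 to 0.325 FPKM over the 22 libraries.

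After the long protocol the low-level genes Col24a1 and Col6a5 rose in OVA lungs, and no type I, III, IV or V gene passed the test. Of the 36 members 2 rose, against 1.03% of all tested genes, and 0 fell, against 0.153%. By limma at an unadjusted p under 0.05 there were 3 members, against 7.42% of all genes. Col3a1 had 59.0, 44.2, 63.8 and 47.9 FPKM in long OVA, 35.3, 32.5, 27.8 and 56.6 FPKM in long MCh, and 66.1, 65.8 and 32.7 FPKM in long PBS, and the groups overlapped. Its OVA against PBS difference of 0.02 ± 0.29 (adjusted p = 1) was −0.31 without long PBS library 3, −0.03 without long OVA library a and −0.06 without long OVA library c. Col1a1 had 16.6, 13.8, 26.0 and 18.1 FPKM in long OVA, 13, 15.4, 13.6 and 22.5 FPKM in long MCh, and 25.04, 29.6 and 16.5 FPKM in long PBS (OVA against PBS −0.34 ± 0.34, adjusted p = 1). Col1a2 had 27.6, 28.6, 34.3 and 29.1 FPKM in long OVA, 18.8, 26.2, 25.03 and 32.2 FPKM in long MCh, and 30.5, 30.9 and 27.3 FPKM in long PBS. The type I libraries of the 3 aerosols overlapped. Col5a2 had 25.5, 23.3, 32.0 and 23.6 FPKM in long OVA, 28.0, 21.8, 37.3 and 32.5 FPKM in long MCh, and 30.5, 29.0 and 21.2 FPKM in long PBS.

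Col4a1 had 62.3, 73.7, 86.9 and 68.8 FPKM in long OVA, 69.4, 90.8, 105 and 116 FPKM in long MCh, and 102, 94.9 and 81.4 FPKM in long PBS (OVA against PBS −0.35 ± 0.24, adjusted p = 1). Col4a3 had 47.2, 48.6, 52.0 and 43.9 FPKM in long OVA, 50.3, 64.3, 68.0 and 65.9 FPKM in long MCh, and 60.7, 60.6 and 53.3 FPKM in long PBS (−0.28 ± 0.22, adjusted p = 1). The OVA libraries of Col4a3 lay below all PBS libraries, by less than the main fit's error could show. With libraries weighted by their spread (array weights), Col4a3 (−0.30 ± 0.09, adjusted p = 0.034) and Col4a2 (−0.37 ± 0.11, 0.032) passed. Neither passed with the length trend removed (adjusted p = 0.41 and 0.42). The type IV genes summed to 259 ± 28.7 FPKM in long OVA, 338 ± 59.0 in long MCh and 324 ± 27.4 in long PBS. Col12a1 had 5.22, 6.99, 8.60 and 6.18 FPKM in long OVA, 10.1, 9.28, 12.1 and 11.1 FPKM in long MCh, and 9.20, 8.73 and 9.30 FPKM in long PBS (−0.42 ± 0.25, adjusted p = 0.90). Col23a1 had 6.97, 6.57, 7.30 and 7.71 FPKM in long OVA, 5.03, 12.1, 18.6 and 9.31 FPKM in long MCh, and 10.1, 10.98 and 10.6 FPKM in long PBS. Its OVA libraries lay below all PBS libraries (−0.53 ± 0.25, adjusted p = 0.65), and the difference passed in a fit without the 3 libraries with most genes at 0 (−0.53 ± 0.11, adjusted p = 0.0097).

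Col24a1 (chromosome 3, 145292472 to 145552013), a fibrillar collagen described in developing bone and cornea, had 4.02, 3.66, 1.21 and 1.97 FPKM in long OVA, 0, 0.171, 0 and 0.0166 FPKM in long MCh, and 0.157, 0.0425 and 0.104 FPKM in long PBS. Every long OVA library was above every long MCh and PBS library. In the short protocol it had 0.664, 0.1997, 0.0164 and 0.288 FPKM with OVA, 1.003, 0.0437, 0 and 0 FPKM with MCh, and 0.0910, 0.0327 and 0.155 FPKM with PBS, and the groups overlapped. Col24a1 rose by 2.32 ± 0.36 against long PBS (adjusted p = 0.0012), by 2.35 ± 0.36 with the length trend removed, and did not pass in the short protocol (0.36 ± 0.36, adjusted p = 0.51). The gene overlaps the long noncoding RNA gene Gm35133 by 3166 bases. Its upstream window, shown because no other fibrillar gene rose after the long protocol, is on the plus strand of chr3:145292222-145292471 and holds none of the motifs searched.
Col24a1: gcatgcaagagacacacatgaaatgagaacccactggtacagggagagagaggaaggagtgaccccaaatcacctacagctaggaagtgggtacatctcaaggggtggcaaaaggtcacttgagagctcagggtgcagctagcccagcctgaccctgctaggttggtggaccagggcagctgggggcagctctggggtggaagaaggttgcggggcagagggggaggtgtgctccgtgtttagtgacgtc

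Col6a5 had 4.12, 1.56, 2.48 and 2.73 FPKM in long OVA, 0.229, 0.411, 0 and 0.451 FPKM in long MCh, and 0.695, 0.934 and 0.494 FPKM in long PBS. Every long OVA library again lay above the rest. It rose by 1.37 ± 0.28 against long PBS (adjusted p = 0.015). The call was lost at a pseudocount of 0.1 (1.76, adjusted p = 0.15) and without long OVA library a (adjusted p = 0.080), long PBS library 1 (0.075) or long PBS library 3 (0.14).

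**Figure D4:**
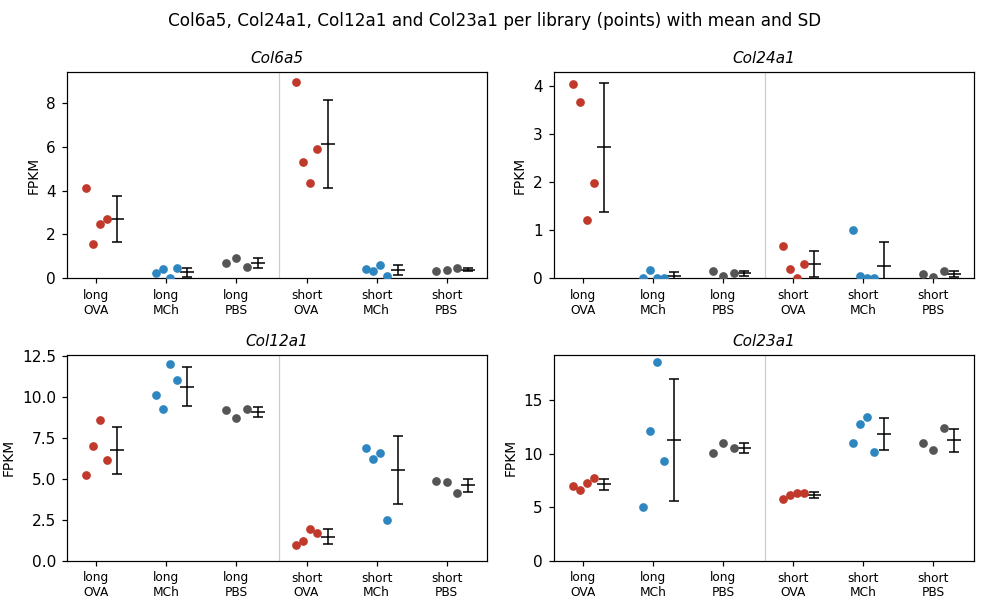
FPKM (vertical axis, from 0) of Col6a5, Col24a1, Col12a1 and Col23a1 in each library (points) by group, with mean and SD. Col24a1 lies at 1.21 to 4.02 FPKM in long OVA and at most 0.157 FPKM in long PBS, and Col6a5 is highest in the OVA libraries of both protocols.

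The OVA effect differed between protocols for Col3a1. The difference of the OVA effects (long minus short) was −2.03 ± 0.41 (adjusted p = 0.011), from a change of 0.02 ± 0.29 in the long and 2.06 ± 0.29 in the short protocol. Of the 36 members 1 was lower in this test, against 1.42% of all tested genes, and 0 were higher, against 0.459%. By limma at an unadjusted p under 0.05 there were 10 members, against 15.2% of all genes. Col1a1 (−1.52 ± 0.48, adjusted p = 0.13), Col5a2 (−0.89 ± 0.29, 0.14), Col6a5 (−1.47 ± 0.40, 0.069), Col24a1 (1.96 ± 0.51, 0.052) and Col4a3 (0.72 ± 0.31, 0.28) did not pass. Without the 3 libraries with most genes at 0, none of which enters this contrast except through the shared spread, Col1a1, Col5a2, Col6a5 and Col24a1 passed too. Col24a1 also passed without short OVA library 1 (adjusted p = 0.042) or long OVA library c (0.024), and Col6a5 without short OVA library 3 (0.0497) or long OVA library a (0.035). With the length trend removed, Col1a1, Col3a1, Col5a2 and Col6a5 passed, and 0 of the 6 type IV genes did. When the compared groups were fitted alone, the type IV genes Col4a2, Col4a3 (0.72 ± 0.13, adjusted p = 0.0018), Col4a4, Col4a5 and Col4a6 passed. The type IV calls thus depended on the fit.

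**Figure D5:**
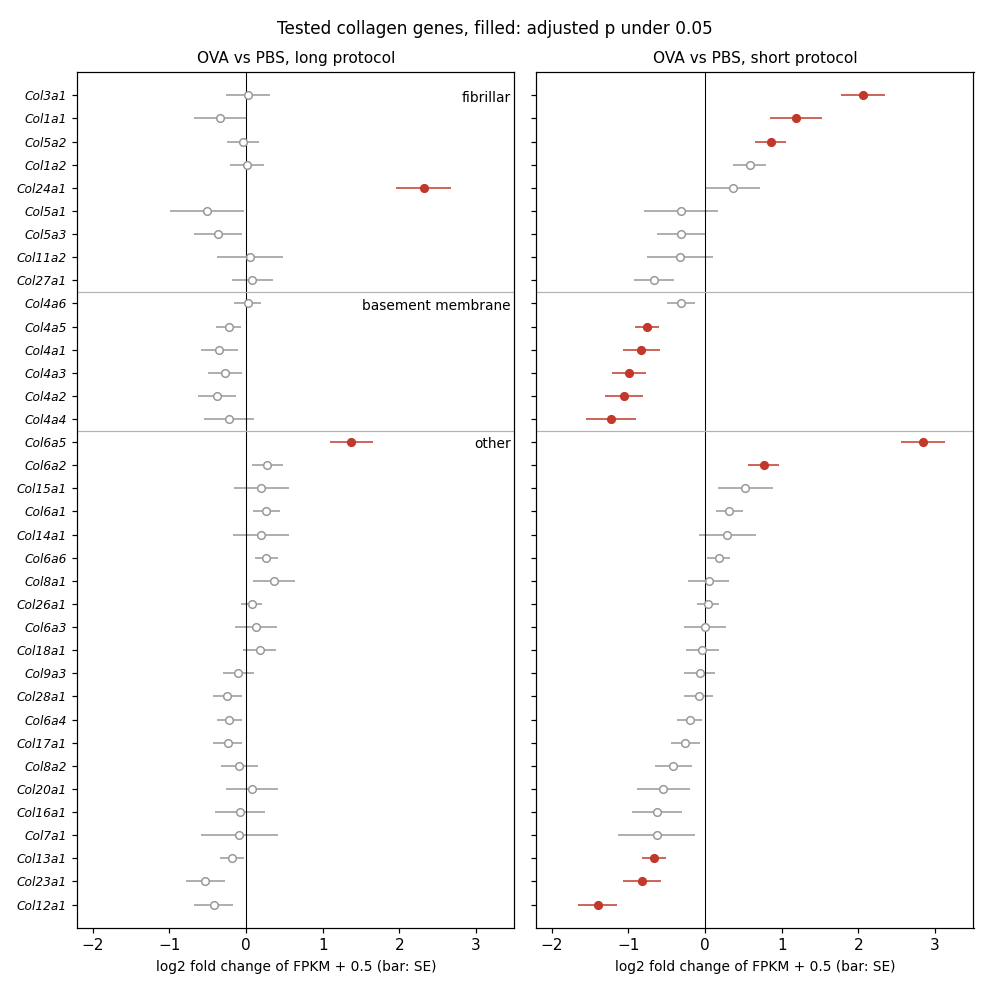
Log2 fold change of FPKM + 0.5 (horizontal axis) for the 36 tested collagen genes, OVA against PBS in the long protocol (left) and in the short protocol (right); points are estimates, bars SE, filled points have an adjusted p under 0.05. In the long protocol Col24a1 and Col6a5 are filled, and in the short protocol 5 filled points lie on the positive side of 0 and 8 on the negative side, 5 of those in type IV.

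The PBS lungs that served as the base of the OVA effects were compared between protocols. Of the 36 members 35 had a higher estimate in long than in short PBS, against 60.2% of all tested genes, and the median difference was 0.47, against 0.05 over all genes. In 23 of the 36 all long PBS libraries lay above all short PBS libraries, against 18.9% of all genes. No member passed the test (0.166% of all genes did), while 12 members and 5.45% of all genes had an unadjusted p under 0.05. Col1a1 had 23.7 ± 6.69 FPKM in long PBS and 6.71 ± 1.17 FPKM in short PBS (1.72 ± 0.37, adjusted p = 0.061). Col3a1 had 54.9 ± 19.2 FPKM in long PBS and 20.9 ± 0.808 FPKM in short PBS (1.30 ± 0.31, adjusted p = 0.11), and passed without long PBS library 3 (1.63, adjusted p = 0.029). Col5a2 (0.88 ± 0.22, adjusted p = 0.14), Col6a3 (0.998 ± 0.29, 0.30), Col12a1 (0.90 ± 0.27, 0.31) and Col4a3 (0.75 ± 0.24, 0.39) had the same sign. With the length trend removed Col1a1 (1.58, adjusted p = 0.028) and Col4a3 (0.55, 0.028) passed, and the median of the members was 0.34. Mesothelial markers summed to 257 to 326 FPKM in long PBS and 98.5 to 199 FPKM in short PBS, with 1 of 5 higher. Fibroblast and myofibroblast markers summed to 1949 to 2384 FPKM in long PBS and 1605 to 2026 FPKM in short PBS. No marker of that list or of the other cell lists passed. Cardiac muscle markers went the other way, with a median of −1.87. The part of these cells was not tested. Mouse age, challenge number and processing of the protocols cannot be told apart here.

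Methacholine gave no called collagen gene. In the short protocol 0 of 36 members passed limma's test, against 0.00638% of all genes, and at an unadjusted p under 0.05 there were 0 members and 7.49% of all genes. Col3a1 differed by 0.28 ± 0.29 and Col4a1 by −0.42 ± 0.24 from PBS (adjusted p = 0.84 and 0.72). Without short MCh libraries 1 and 4, left out after the data were seen, these differences were 0.07 ± 0.30 and −0.02 ± 0.18, and 0 members passed. In the long protocol 0 of 36 passed limma's test, against 0.0638% of all genes, and 3 members and 16.3% of all genes had an unadjusted p under 0.05. Col3a1 differed by −0.50 ± 0.29, Col1a1 by −0.54 ± 0.34, Col6a5 by −0.67 ± 0.28 and Col27a1 by 0.44 ± 0.26 from long PBS, with adjusted p of 0.38, 0.43, 0.27 and 0.41. Col5a3, a minor type V chain, passed without long MCh library d (−1.10 ± 0.28, adjusted p = 0.036). It had 0.0662, 0.766, 0.01965 and 1.14 FPKM in long MCh libraries a to d and 0.679 to 1.37 FPKM in long PBS. Its low values were in libraries a and c, those with the most genes at 0.

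OVA was also set against MCh, a contrast that uses the same OVA libraries. Of the 36 members 6 were higher in short OVA than in short MCh, against 9.37% of all genes, and 5 were lower, against 5.82%. The higher ones were Col6a5 (2.93 ± 0.26, adjusted p = 1.5e-07), Col3a1 (1.77 ± 0.27, 9.1e-05), Col1a1 (0.97 ± 0.32, 0.044), Col6a2 (0.91 ± 0.18, 0.0015), Col5a2 (0.82 ± 0.19, 0.0049) and Col1a2 (0.61 ± 0.20, 0.048). The lower ones were Col12a1 (−1.56 ± 0.24, 9.6e-05), Col23a1 (−0.89 ± 0.23, 0.012), Col4a3 (−0.75 ± 0.21, 0.016), Col8a2 (−0.70 ± 0.22, 0.040) and Col4a5 (−0.62 ± 0.15, 0.0069). Col8a2 had 3.26 ± 0.452 FPKM in short OVA and 5.75 ± 1.67 FPKM in short MCh. The calls of Col1a1, Col1a2, Col4a3 and Col8a2 depended on single libraries. Without short OVA library 1 their adjusted p were 0.15, 0.18, 0.051 and 0.11, without short MCh library 2 they were 0.063, 0.077, 0.075 and 0.085, and without short MCh library 3 they were 0.098, 0.096, 0.062 and 0.10. Col1a1 was also lost without short OVA library 2 (0.056), short OVA library 4 (0.12) or short MCh library 4 (0.10), and Col1a2 without short OVA library 4 (0.11) or short MCh library 4 (0.10). Col4a3 was also lost without short MCh library 1 (0.0505), and Col8a2 without short OVA library 2 (0.11), 3 (0.053) or 4 (0.054) or short MCh library 1 (0.13). Without short MCh library 4 alone, 16 members passed. Without short MCh libraries 1 and 4, 6 members were higher and 10 lower. The shares of all tested genes in these fits are not given here, so these counts are not results about collagen genes.

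In the long protocol 2 of 36 members were higher in OVA than in MCh, against 4.75% of all genes, and 0 were lower, against 1.31%. By limma at an unadjusted p under 0.05 there were 7 members, against 24.9% of all genes. The members that passed were Col24a1 (2.46 ± 0.33, adjusted p = 1.1e-04) and Col6a5 (2.04 ± 0.26, 6.6e-05). Col28a1, a chain with the third smallest p here, had 0.123, 0, 0.146 and 0.0352 FPKM in long OVA, 0.0716, 0.219, 0.779 and 0.389 FPKM in long MCh, and 0.199, 0.190 and 0.151 FPKM in long PBS. Its long OVA and MCh libraries overlapped and the difference did not pass (adjusted p = 0.075). Its short libraries had 0.146, 0.0595, 0.0627 and 0.112 FPKM with OVA, 0.0105, 0.182, 0.00851 and 0.0247 FPKM with MCh, and 0.112, 0.180 and 0.102 FPKM with PBS. Without long MCh library a 4 members passed, with Col28a1 (−0.71) and Col23a1 (−0.81) lower, and without long MCh library b 4 passed, with Col28a1 (−0.60) lower and Col6a6 (0.56) higher. The shares of all tested genes that passed without those libraries are not given here, so these counts are not results about collagen genes. With the length trend removed 6 members were lower in OVA, against 700 of all 15682 tested genes. Among them were Col4a1 (−0.49 ± 0.14, adjusted p = 0.033, and −0.37 ± 0.22 and 0.31 as deposited) and Col12a1 (−0.74 ± 0.17, 0.0089, and −0.63 ± 0.24 and 0.11 as deposited).

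Of 32 tested enzymes that modify, fold and crosslink collagen, 4 rose and 5 fell in short OVA against short PBS, shares near the 12.4% and 11.7% of all tested genes, with a median of −0.08. Ppib, a prolyl isomerase of the endoplasmic reticulum, rose by 0.996 ± 0.15, P4hb, the beta subunit of prolyl 4-hydroxylase, by 0.52 ± 0.09, and Loxl4, a lysyl oxidase, by 1.43 ± 0.33 (adjusted p = 9.3e-05, 1.9e-04 and 0.0039). Plod2, a lysyl hydroxylase, fell by 0.76 on the log2 scale (SE 0.18, adjusted p = 0.004). In long OVA against long PBS 0 of the 32 passed limma's test, against 1.03% of all tested genes higher and 0.153% lower. By limma at an unadjusted p under 0.05 there were 3 of the 32, against 7.42% of all genes.

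Of 11 genes of collagen turnover 4 rose and 2 fell in short OVA, against 12.4% and 11.7% of all tested genes. Timp1, an inhibitor of matrix metalloproteinases, rose by 4.998 ± 0.38, Ctsk, a collagen-degrading cathepsin, by 3.24 ± 0.35, and Mmp13, a collagenase, by 2.01 ± 0.33 (adjusted p = 2.0e-08, 1.8e-06 and 2.1e-04). Timp3, an inhibitor bound to the matrix, fell by 0.96 (SE 0.19, adjusted p = 0.0013). In the long protocol Ctsk was the 1 of 11 that passed (2.44 ± 0.35, adjusted p = 5.5e-04). Of all tested genes 1.03% were higher there and 0.153% lower. Of 10 collagen receptors 3 fell in short OVA: the integrin subunits Itga1 (−1.02 ± 0.25) and Itga2 (−0.84 ± 0.22) and the adhesion receptor Adgrg1 (−0.65 ± 0.16), with adjusted p of 0.0066, 0.0091 and 0.0069. Of all tested genes 11.7% fell, and of those with the longest transcripts 26.1%. In long OVA against long PBS 0 of the 10 receptors passed limma's test, against the same 1.03% and 0.153% of all tested genes. By limma at an unadjusted p under 0.05 there were 0 of the 10, against 7.42% of all genes.

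Fibroblast and myofibroblast markers summed to 1613 to 2229 FPKM in short OVA and 1605 to 2026 FPKM in short PBS. Of 14 markers 4 rose, against 12.4% of all tested genes, among them Acta2 (1.40 ± 0.13), the smooth muscle actin, and Fn1 (1.13 ± 0.28), fibronectin, and 3 fell, Npnt (−0.62 ± 0.12), Pdgfrb (−0.97 ± 0.22) and Pdgfra (−0.63 ± 0.19). Adjusted p were 3.6e-07, 0.0058, 7.3e-04, 0.0032 and 0.019. Cthrc1 was the 1 marker at 0 in any library. Proliferation markers rose in 5 of 5, and summed to 63.5 to 79.9 FPKM in short OVA and 7.97 to 27.5 FPKM in short PBS. Leukocyte markers rose in 2 of 5, and summed to 125 to 160 FPKM in short OVA and 50.1 to 110 FPKM in short PBS. The part of these cells in the fibrillar result was not tested.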

How the data were processed

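The authors deposited FPKM values per gene and per transcript. The tools named, per the submitters' processing notes, are STAR, Trim Galore and DESeq2, with build mm10; versions, the FPKM program and the annotation: not given in the sources used here. Libraries were made with stranded total RNA kits per the labels' protocols. The 8 long MCh and long OVA columns matched a group but no replicate, and are called a to d. Read counts were not used: the steps of FPKM imply 15.1 to 25.3 fragments per library for a 1 kb transcript at 1 FPKM.

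Genes with at least 0.1 FPKM in at least 3 libraries were fitted as log2(FPKM + 0.5), which understates folds of low genes, with limma 3.58.1 (R 4.3.3; lmFit, contrasts.fit, eBayes with trend), 1 coefficient for each of 6 groups, two-sided, Benjamini-Hochberg within each of 8 contrasts. p-values measure the spread between these libraries. Contrasts against PBS of 1 protocol share those libraries. The scripts were tested on simulated data. Positions and upstream sequences are RefSeq's (GRCm38.p6, the patch release of mm10), matched by symbol. Transcript lengths are GENCODE's, matched by RefSeq transcript identifier or, where that failed, by symbol. Per-library values are given for Col1a1, Col1a2, Col3a1, Col5a2, Col4a1, Col4a3 and the 3 members with the smallest p in each contrast with a called member; means or ranges for the other members; and at most 4 called genes per further list. Members, lists and this rule were chosen with earlier results of these data known. Alternatives were pseudocounts, filters, median-of-ratios scaling, array weights, length trend removal, transcript sums, fits of the compared groups alone, a replicate block and leaving out libraries.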

Additional observations from a re-analysis of the deposited data

Results flagged for a closer look

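The difference between the OVA effects of the protocols passed for Col3a1 alone among the members (−2.03, long minus short). A screen of 72 sets of 4 libraries for a value far from the other 3 found 5, where chance gives about 1 in 20. A further 4 sets, Col9a1, Col9a2, Col10a1 and Col11a1 in short MCh, were added after their values were seen and are outside that count. In short MCh library 1 Col9a2 stood at 1.74 FPKM and Col9a1 at 0.409 FPKM, both 0 in the other 3 libraries, Col10a1 at 0.766 FPKM (others at most 0.0667), Col11a1 at 0.238 FPKM (others at most 0.0402) and Col24a1 at 1.003 FPKM (others at most 0.0437). These collagens, except Col24a1, are known from cartilage. That library had the highest sums of the 22 for 4 marker lists: cartilage (25.9 FPKM), basal epithelial (36.7 FPKM), cardiac muscle (534.7 FPKM) and mesothelial (435 FPKM). Of the 10 cartilage markers Matn1, Matn3 and Snorc were at 0, Chad at 17.6 FPKM and Matn4 at 5.83 FPKM made up most of the sum, and Acan, Comp, Cnmd, Hapln1 and Sox9 lay between 0.205 and 0.809 FPKM. The part of these cells in the values was not tested.

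Short MCh library 4 had Col12a1 at 2.503 FPKM, against 6.24 to 6.90 FPKM in the other 3, and the length trend of −0.643 given above. The further values were Col4a1 in short OVA library 4 (40.2 FPKM, others 37.0 to 37.4), Col28a1 in short MCh library 2 (0.182 FPKM, others at most 0.0247) and Col24a1 in long MCh library b (0.171 FPKM, others at most 0.0166).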

How the results depend on the processing

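The change of Col3a1 in OVA against PBS long (0.02, not passed) turned negative with array weights (−0.011) and without long OVA library a (−0.03), long OVA library c (−0.06) or long PBS library 3 (−0.31); leaving out 1 library gave −0.31 to 0.19. No other result in the recomputed set changed sign. The count of members passing in OVA against PBS short was 13 and became 22 with array weights and with the compared groups fitted alone. In OVA against PBS long it was 2, and became 1 with a pseudocount of 0.1 and 6 with array weights. In OVA against MCh short it was 11, and became 25 with array weights and 6 with the groups alone; in OVA against MCh long it was 2, and became 10 with array weights and 8 with the length trend removed. For the difference of the OVA effects it was 1, and became 3 with a pseudocount of 1, 18 with array weights, 4 with the length trend removed, 5 without the 3 sparse libraries, 2 with transcript sums and 16 with the groups alone. For PBS long against short it was 0, and became 18 with array weights, 2 with the length trend removed, 5 without the sparse libraries and 5 with the groups alone. The cause was not tested. The share of all tested genes that passed is not given for each fit, so these counts are not results about collagen genes. With the length trend removed that share was 8.7% in OVA against MCh long. It was 2.07% for the difference of the OVA effects and 0.306% in PBS long against short. Leaving out 1 library gave 10 to 13 in OVA against PBS short, 1 to 2 in OVA against PBS long, 0 to 1 in MCh against PBS long, 7 to 16 in OVA against MCh short, 2 to 4 in OVA against MCh long, 1 to 2 for the difference of effects and 0 to 1 in PBS long against short.

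Deviations from the group means of same-numbered libraries of different groups had correlations of −0.27 to 0.36. Libraries with different numbers were not compared in this way, so whether the numbers pair libraries cannot be told. With a replicate block the counts were 13 (OVA against PBS short), 0 (MCh against PBS short), 10 (OVA against MCh short) and 0 (PBS long against short). No paired analysis was possible for long MCh and long OVA because their columns carry no replicate of the labels. Members below about 0.1 FPKM rest on few fragments, and their differences were not detectable at this depth.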

Other observations

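The transcript table lists 2 transcripts of Col13a1, and long MCh libraries a and c differed from the rest in which of them carried the FPKM. The second transcript (3162 bases) had 15.4 and 18.7 FPKM in these libraries and 1.11 to 4.56 FPKM in the other 20. The first (2935 bases) had 1.22 and 4.59 FPKM in these libraries and 11.1 to 23.6 FPKM in the other 20. Long MCh libraries a and c are also those with the most genes at 0, with 13 and 12 of the 44 collagen genes at 0, against 2 to 9 in the other 20. This was noticed in the data and was not tested. The gene value of Col13a1 was 9.84 and 13.7 FPKM in the libraries a and c and 13.95 and 14.8 FPKM in long MCh libraries b and d.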
